A study of Mus musculus with 10 samples.

Results

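The spleen supplied 2 of the 10 arrays of a study of male ICR mice, an outbred stock, and its transcript profile is set here against that of liver, jejunum, ileum and distal colon. The 2 spleen arrays were chosen by their tissue label, 1 from mice of 28 months and 1 from mice of 4 months, and the 8 other arrays cover the other 4 tissues at the same ages. All mice received the AIN-93 diet. The 28-month mice entered the study when 8 months old and the 4-month mice when 2 months old. RNA was extracted from the tissues of each mouse, and equal amounts from 9 mice at 28 months or 6 mice at 4 months were pooled and read on 1 Affymetrix Mouse Genome 430 2.0 array for each tissue and age, so that the spread between single mice was not measured. No group had a second array. The 2 ages of a tissue served as its only repeats, and p-values measure the spread between ages within a tissue beyond an age shift shared by all tissues. An exact permutation of the 5 tissue labels could not give a p below 0.2.

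The spleen filters blood and is the largest secondary lymphoid organ. Its white pulp consists of B cell follicles and T cell zones laid out along arterioles by chemokines, and its red pulp is a sponge of sinuses and cords in which macrophages remove worn red cells and return their iron. In mice the red pulp also remains a site of blood formation in adult life, where red cell precursors, megakaryocytes and granulocyte precursors mature. The organ derives from mesoderm, whereas the epithelial cells of liver and intestine derive from endoderm.

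Array signals are given in units after scaling each array to a trimmed mean of 500 units, and signals under 111 units, the median of all signals, lay in the range of background. Such signals were raised to that floor before any difference was taken, so a fold with 1 side at the floor is written as a lower bound, and medians over gene lists are of these floored differences and understate the size where members lie at the floor. A gene was called higher in spleen when the lower of its 2 spleen signals was at least 2-fold above the mean of the 8 other arrays and the fit gave an adjusted p under 0.05. A gene was called lower when the higher of its 2 spleen signals was at least 2-fold below that mean, with the same limit on p. The lower spleen value was used because transcripts of the pancreas were high on the spleen array of 4 months and not on that of 28 months. Of 18194 genes on the array, 13608 were above the floor on at least 2 arrays and were tested.

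The 2 spleen arrays correlated with each other at r = 0.988 across all 45101 probe sets, on the log2 signals as deposited. Each correlated with the 8 other arrays at r = 0.807 to 0.881. Probe sets are not independent replicates. Between the 2 spleen arrays the median absolute log2 difference was 0.14. The actin control, a measure of RNA integrity, gave log2 signals larger at 3′ than at 5′ probe sets by 1.01 and 0.84 in spleen at 28 and 4 months and by 0.59 to 2.01 in the other arrays. For the Gapdh control the gap was 1.01 and 0.89 in spleen and -0.00 to 0.98 in the others; its part in the results was not tested. The summed signal of 9 hepatocyte genes was 1582 and 896 units in spleen at 28 and 4 months, against 289996 and 279078 units in liver, and that of 9 enterocyte genes was 429 and 417 units in spleen, against 111391 and 153135 units in jejunum. All 9 enterocyte genes and 7 of the 9 hepatocyte genes were below the floor on both spleen arrays, among them Ttr (30.5 and 50.6 units), Fgb (44.9 and 43.8 units) and Vil1 (44.1 and 37.4 units). The others were Alb, albumin, with 80.5 and 147 units in spleen, and Hp, haptoglobin, with 1082 and 380.4 units in spleen against 38780.0 and 30339 units in liver. Hp was not called, but was higher in spleen without liver (log2 difference 1.77) and without the spleen array of 4 months (1.22).

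A total of 1545 genes were higher in spleen, 11.4% of the 13608 tested, and 2028 genes, 14.9%, were lower. A second fit held spleen and age alone, so that its error joined the spread between the 4 other tissues to that between ages. It called 1230 genes higher and 847 lower. Named below as the spread between tissues as error, this fit counts the 8 other arrays as independent, though each tissue gave 2 of them. The median difference over all genes tested was -0.10 for the lower spleen value and 0.04 for the higher one on the log2 scale. A narrower set of 754 genes, 5.54%, had a lower spleen value at least 2-fold above the highest of the 8 other arrays, and 480 genes, 3.53%, had a higher spleen value at least 2-fold below the lowest of them. In 86 of the 754 genes all 8 other arrays were below the floor. In 803 of the 2028 lower genes both spleen arrays were below it. In bulk tissue, fewer cells of a type and less RNA per cell cannot be told apart. At the edge of the rule, Slc25a12 was just inside and Bub3 just outside, both at a log2 difference of 1.00 after rounding. Of the called genes read by several measured probe sets, all sets had the same sign in 661 of 756 genes higher in spleen and in 746 of 812 genes lower in spleen. All sets differed by 2-fold the same way in 292 and 363 of them.

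**Figure D1:**
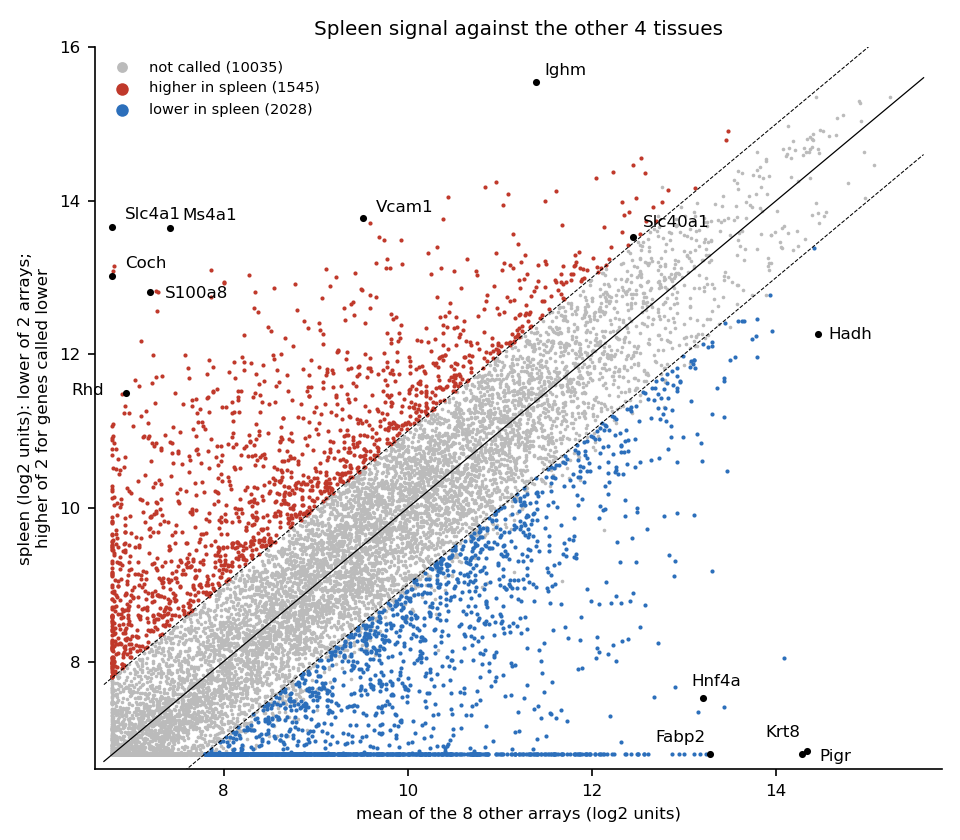
Spleen signal (vertical axis, log2 units) against the mean of the 8 other arrays (horizontal axis, log2 units) for 13608 genes, with 1545 genes called higher in red and 2028 called lower in blue; the solid line marks equality and the dashed lines a 2-fold difference. The lower of the 2 spleen values is plotted, or the higher one for genes called lower, and the row of blue points at the bottom holds genes below the floor in spleen.

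The genes that stood farthest above every other array included genes known from red cells, platelets, lymphocytes and macrophages. Slc4a1, the anion exchanger of the red cell membrane known as band 3, gave 18345 units at 28 months and 12862 units at 4 months in spleen, against 26.7 to 56.0 units (median 33.3) in the 8 other arrays. Both spleen arrays were bright and the other 8 all lay in the background, a difference of at least 116-fold from the highest of them. Coch, which encodes the extracellular protein cochlin, reported in follicular dendritic cells of the mouse spleen, gave 8302 units at 28 months and 11307 units at 4 months in spleen, against 38.5 to 58.2 units (median 47.9) elsewhere, a log2 difference of at least 6.23 from the highest of them. Ppbp, a chemokine stored in platelets, gave 11140.0 and 8684 units in spleen at 28 and 4 months, 72.7-fold above the highest other array. Hemgn, a nuclear protein of blood precursors, followed with 12530.0 and 9114 units, against 24.5 to 126 units (median 34.0). Hs6st2, a sulfotransferase that modifies heparan sulfate, had 2141 and 2405 units in spleen and 27.6 to 42.0 units (median 35.1) in the other arrays, at least 19.3-fold higher. Ifi209, of the interferon-inducible PYHIN family, was 18.6-fold above the highest other array and Cldn13, a claudin, at least 17.4-fold. Gpr174, a receptor for lysophosphatidylserine on lymphocytes, had 1895 and 1991 units in spleen, at least 17.1-fold above the highest other array. The remaining members of the first 12 were Rhd, Trim10, Tal1 and Spic, described below with their lineages. In none of the 12 did the spleen arrays overlap the others, which the ranking required.

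Ranked instead against the mean of the 8 other arrays, and restricted to genes whose measured probe sets all agreed at 2-fold, the first 12 also held genes of B cells and granulocytes that distal colon or liver expressed at a lower level. These were Ms4a1, Cd79b, Bank1 and H2-Ob of B cells, S100a8 and S100a9 of granulocytes, the immunoglobulin segment Ighv14-2, and Ms4a4b, a membrane protein of T cells. Ighv14-2 gave 7272 and 8335 units in spleen, against 41.9 to 563 units (median 53.7), but its probe set may read other members of the variable segment family. Ms4a4b gave 8132 and 7158 units in spleen, against 55.6 to 547 units (median 122), and was at least 46.0-fold above the mean of the others.

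**Figure D2:**
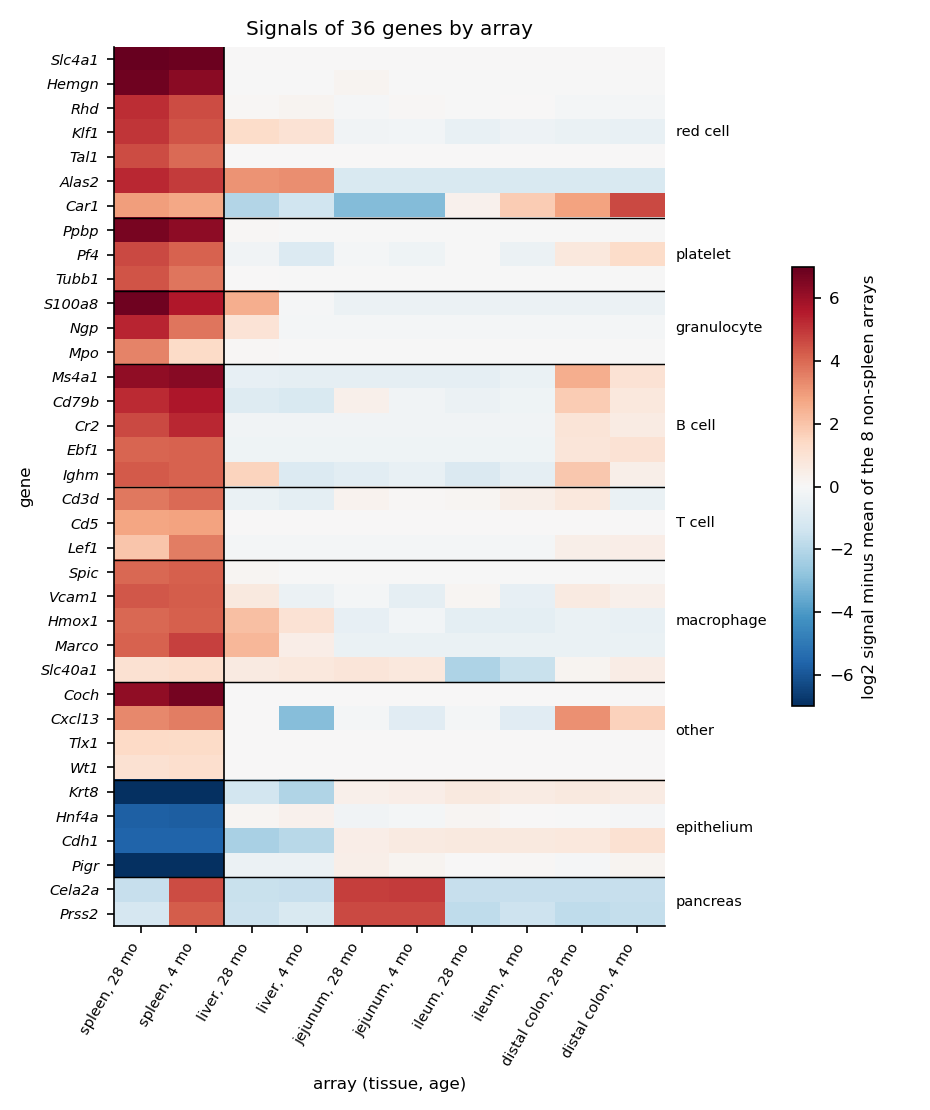
Signals of 36 genes (rows) on the 10 arrays (columns, spleen at the left), as log2 signal minus the mean of the 8 non-spleen arrays, with signals under 111 units set to that floor. Red cell, platelet, B cell and macrophage genes were high on both spleen arrays, epithelial genes were low on both, and Cela2a and Prss2 of the pancreas were high on the spleen array of 4 months and on both jejunum arrays.

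The red cell programme was higher in spleen with 1 exception. Of 25 listed genes of red cell precursors, 22 were on the array with a single gene name and 21 were tested; 20 of the 21 rose, 14 of them above every other array, and the median log2 difference was 3.34 against -0.10 over all genes. In 7 of the 21 no other tissue was above the floor on average, so that these passed the filter through the spleen arrays. Leaving out 1 spleen array lowered the count of higher genes to 14 without that of 4 months and to 13 without that of 28 months, where 7 were above every other array, since genes above the floor in spleen alone then failed the filter of 2 arrays. The member that was not called was Sptb, a spectrin chain, with a log2 difference of 0.70. With the spread between tissues as error 15 of the 21 were called, and 17 with the floor at percentile 75 of all signals.

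Klf1, Tal1, Gata1 and Nfe2, transcription factors of this lineage, were higher in spleen. Klf1, which drives globin and membrane genes, had 5145 units at 28 months and 3376 units at 4 months in spleen, against 96.6 to 399.8 units (median 131) in the other arrays, where the 2 liver arrays were highest at 399.8 and 321 units. Tal1, a basic helix-loop-helix factor needed for blood formation, had 2669 and 1741 units in spleen and 59.5 to 105 units (median 84.1) elsewhere, a difference of at least 15.7-fold. Gata1, the zinc finger factor of red cells and megakaryocytes, had 1042 and 623 units, against 64.1 to 94.0 units (median 70.1). Nfe2, which partners small Maf proteins, had 1770.0 and 1121 units, against 50.9 to 83.1 units (median 56.6). In all 4 factors both spleen arrays exceeded all others, and the array of 28 months was the higher of the pair.

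The membrane genes Rhd, Rhag, Kel and Epb42 and the haem gene Alas2 each stood above every other array. Rhd, the Rh blood group protein, had 4419 units at 28 months and 2882 units at 4 months in spleen, against 99.9 to 139.8 units (median 123) in the others. Its partner Rhag had 2095 and 1198 units, against 21.6 to 25.6 units (median 23.7). Kel, the Kell blood group protease, had 1747 and 1253 units, against 44.1 to 53.7 units (median 48.9), and Epb42, protein 4.2 of the membrane skeleton, had 1289 and 733 units, against 20.7 to 30.1 units (median 23.7). Trim10, a RING finger protein of terminal red cell maturation, had 3044 and 1959.8 units, 17.3-fold above the highest other array. Alas2, the first enzyme of haem synthesis in red cells, had 8884 units at 28 months and 6846 units at 4 months in spleen, against 2062 and 2229 units in liver and 82.0 and 61.2 units in distal colon. Other tissues carried a few members at high levels of their own. Car1, a carbonic anhydrase of red cells and colon, had 6906 and 5908 units in spleen but 6485 and 22226 units in distal colon, and the groups overlapped. Ermap, a red cell adhesion molecule, had 5234 and 3637 units in spleen and 2450.5 and 1856 units in distal colon, with 2450.5 as the highest value outside spleen.

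Promoter sequences of 4 called red cell genes show where the letters AGATAA, the core bound by GATA factors, stand relative to the annotated start. Windows of 300 bases, 250 before and 50 after the start, were taken from RefSeq on build GRCm38.p6, in the direction of transcription. Hemgn lies on the minus strand at chr4:46404134-46404433, Rhd on the plus strand at chr4:134864286-134864585, Tal1 on the plus strand at chr4:115056176-115056475 and Alas2 on the plus strand at chrX:150547167-150547466. Capitals mark AGATAA or its reverse complement, at position 28 in Hemgn, -43 in Rhd, -205 in Tal1 and -86 in Alas2 relative to the start.
Hemgn: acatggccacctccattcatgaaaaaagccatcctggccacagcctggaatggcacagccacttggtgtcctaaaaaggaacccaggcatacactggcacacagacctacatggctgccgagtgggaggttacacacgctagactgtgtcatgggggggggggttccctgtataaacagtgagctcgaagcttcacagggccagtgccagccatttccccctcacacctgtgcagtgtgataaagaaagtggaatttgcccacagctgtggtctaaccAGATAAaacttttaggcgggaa
Rhd: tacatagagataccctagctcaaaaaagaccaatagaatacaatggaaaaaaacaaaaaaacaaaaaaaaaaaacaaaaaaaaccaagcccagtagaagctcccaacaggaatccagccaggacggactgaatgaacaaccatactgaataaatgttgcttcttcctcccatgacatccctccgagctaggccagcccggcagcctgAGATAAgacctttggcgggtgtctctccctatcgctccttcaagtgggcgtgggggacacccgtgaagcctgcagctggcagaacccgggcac
Tal1: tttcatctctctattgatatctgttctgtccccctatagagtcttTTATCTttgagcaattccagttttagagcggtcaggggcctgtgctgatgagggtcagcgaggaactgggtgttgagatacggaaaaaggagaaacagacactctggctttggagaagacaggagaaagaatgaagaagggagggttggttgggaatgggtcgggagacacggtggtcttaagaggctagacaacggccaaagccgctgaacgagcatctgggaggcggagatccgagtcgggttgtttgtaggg
Alas2: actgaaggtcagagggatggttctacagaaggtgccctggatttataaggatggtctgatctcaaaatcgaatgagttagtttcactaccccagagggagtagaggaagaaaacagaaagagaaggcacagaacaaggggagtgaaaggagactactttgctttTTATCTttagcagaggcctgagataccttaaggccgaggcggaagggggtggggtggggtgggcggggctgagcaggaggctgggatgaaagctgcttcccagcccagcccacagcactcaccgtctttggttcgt
Of the 20 called red cell genes, 14 had a window, and 8 of their 16 windows held these letters on either strand, against 11.2% of all 32851 mouse windows and 7.08% of the 13945 windows of genes tested. Over all called genes, the letters stood in 7.68% of the 1653 windows of higher genes and in 8.35% of the 2059 windows of lower genes. The 16 windows belong to genes chosen for this lineage, and a match of 6 letters is a description of the window.

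Genes of haem synthesis, haem breakdown and iron traffic were raised in part. Of 17 tested, 9 rose and 2 fell, with a median log2 difference of 1.07. Fech, the last enzyme of haem synthesis, had 15177 units at 28 months and 12164 units at 4 months in spleen, against 1496 to 5273 units (median 1849). Urod and Uros, earlier enzymes of the path, rose by 2.32-fold and 2.67-fold over the mean of the others, whereas Alad (0.63 on the log2 scale) and Cpox (0.98) did not reach 2-fold by the lower spleen value. Tfrc, the transferrin receptor, had 11776 and 8116 units in spleen, against 1076 to 7928 units (median 4885), and was called higher, but not without liver (log2 difference 0.55). Cpox was called without liver, at 1.57. The iron importer Slc11a2 of the intestinal lining fell, with 172 and 98.7 units in spleen against 2233 and 1086 units in jejunum, and without jejunum its difference was 0.14. Hamp, the iron hormone hepcidin, was at 32.7 and 32.0 units in spleen and at 14749 and 17046 units in liver, and was at background in the intestine.

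Cell division genes were higher in spleen, by a median log2 difference of 3.26 over liver and 1.15 over jejunum. Of 23 tested, 20 rose, 5 of them above every other array, and the median log2 difference was 1.59. With the spread between tissues as error 5 were called, and 13 without liver or with the floor at percentile 75 of all signals. The number above every other array depended on single arrays and tissues, and was 15 without the spleen array of 4 months and 11 without jejunum. Mki67, a protein of dividing nuclei, had 12169 units at 28 months and 8955 units at 4 months in spleen, against 2665 and 1817 units in jejunum and 112 and 80.6 units in liver. Rrm2, a subunit of ribonucleotide reductase, had 10584 and 6581 units in spleen and 443 to 1179.5 units (median 659) in the others. Jejunum was the highest other tissue for 22 of the 23 genes. All 23 were higher in spleen at 28 than at 4 months, with a median difference of 0.64, against 45.0% of all genes tested.

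B cell genes were higher in spleen almost without exception. Of 22 listed genes of B cell identity 21 were tested, and 20 rose, all 20 above every other array, with a median log2 difference of 4.05. Ms4a1, which encodes CD20, had 12818 units at 28 months and 14092 units at 4 months in spleen, against 66.6 to 978 units, median 114, in the other arrays. The highest other value was that of distal colon at 28 months, and spleen exceeded it 13.1-fold. The fit of spleen against the mean of the other tissues gave an adjusted p of 1.4e-06. Cd79b, a signalling chain of the antigen receptor, had 8787 and 11674 units in spleen and 75.9 to 793 units (median 192) elsewhere. Cd22, an inhibitory receptor, had 6224 and 6848 units, against 210.3 to 701 units (median 304), and Cr2, the complement receptor CD21, had 3244 and 5142 units, against 54.1 to 249 units (median 71.8). Bank1, a scaffold of receptor signalling, was above the floor on every array, with 7884 and 9773 units in spleen against 133 to 697 units (median 236), a fitted log2 difference of 5.09 ± 0.32 (SE). Distal colon was the highest other tissue for 18 of the 21 genes. Pax5, the factor that commits cells to this lineage, was not called, with 167 and 247 units in spleen against 74.8 to 102 units (median 85.0). Its signals in spleen were near the floor.

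Unlike Pax5, 4 other transcription regulators of the B cell list were called higher. Ebf1, an early B cell factor, had 2343 and 2399 units in spleen, against 32.6 to 279 units (median 79.8). Spib, an Ets family factor, had 2622 and 3544 units, against 62.8 to 467 units (median 198), and Pou2af1, a coactivator of octamer binding factors, had 7913 and 6111 units in spleen and 1686 and 663 units in jejunum. Bcl11a, a zinc finger factor, had 2232 and 3672 units, against 34.6 to 395 units (median 226). None of these 4 overlapped the other arrays.

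The path downstream of the B cell receptor followed. Of 15 genes tested 13 rose, 10 above every other array, with a median of 2.63. The kinases Btk and Syk had 1975 and 2324 units and 3054 and 3269 units in spleen, against 137 to 238 units (median 156) for Btk and 191 to 989 units (median 519) for Syk in the others. Prkcb, a protein kinase C, had 5036 and 6722 units, against 142 to 1293 units (median 316), and the phosphatase Ptpn6 had 4176 and 4795 units, against 396 to 778 units (median 613). The adaptor Blnk was called higher with 4606 and 5519 units, but distal colon came close with 3785 and 3207 units. Fcgr2b, the inhibitory Fc receptor, had 3047 and 3131 units in spleen and 3101 and 2529 units in liver. Cd81, a tetraspanin of the coreceptor, and Bcl10 were not called, with log2 differences of 0.12 and 0.73.

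Lists of genes used by B cell subsets gave the following counts, and differences between the lists were not tested. Of 7 genes used by marginal zone B cells, 6 rose, among them S1pr3, a receptor for sphingosine 1-phosphate, with 3607 and 5222 units in spleen against 522 to 885 units (median 662), and Notch2, the receptor that directs this fate, with 3419.6 and 4172 units against 492 to 1639 units (median 960.2). Cd9 was not called, with 4446 and 4021 units in spleen against 1742 to 15989 units (median 3549). The count of 6 became 4 with the spread between tissues as error or with the floor at percentile 75. It was also 4 without probe sets that can read several transcripts, where 1 stood above every other array in place of 4. Cr2 belongs to this list and to the B cell list. Of 6 tested genes of germinal centres 1 rose, against 11.4% of all genes tested. It was the repressor Bcl6, at 1171 and 1292 units in spleen and 1236 and 1399.6 units in liver. Its difference of 1.13 on the log2 scale became 0.95 without ileum and 0.97 without jejunum, short of the limit. The count was 0 without ileum and 2 without the spleen array of 4 months. Rgs13, a regulator of G protein signalling in germinal centre B cells, had 973 units at 28 months and 305 units at 4 months, against 20.5 to 452 units (median 67.3), and its lower spleen value was not 2-fold above the mean unless jejunum was left out, when it was called.

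Among 13 plasma cell genes, 4 rose and 1 fell, against 11.4% and 14.9% of all genes tested. Their median was 0.10, close to that of all genes, and 7 rose with intestine and liver weighted equally. Ighm, the heavy chain of IgM, had 53650.0 units at 28 months and 47911 units at 4 months in spleen, against 1359 to 9942 units (median 1796) in the other arrays, 17.8-fold above their mean (fitted log2 difference 4.24 ± 0.51, SE). Without probe sets that can read several transcripts, another Ighm probe set was used and the gene was not called, at a log2 difference of 0.02. Igha, the heavy chain of IgA, was not called, with 24455 and 14023 units in spleen, 53987 and 42625 units in jejunum and 1581 and 151 units in liver. Jchain, the joining chain of IgA and IgM, had 22755 and 18599 units in spleen and 26102 and 19403 units in jejunum and was not called (adjusted p = 0.068), but it was called without jejunum or without ileum, at log2 differences of 1.99 and 1.90. Mzb1, a chaperone of antibody assembly, rose, with 13356 and 11444 units against 142 to 3399 units (median 1392), and so did Tnfrsf13b, a receptor for the survival factors BAFF and APRIL, with 2403 and 3269 units against 66.4 to 516 units (median 226). Irf4, a factor of activated B and plasma cells, had 1132 and 1092 units, against 57.3 to 414 units (median 193). Sdc1, a proteoglycan of plasma cells and of epithelia, fell, with 1658 and 1005 units in spleen against 3450.3 to 6534 units (median 4957).

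The promoters of Cd37, a tetraspanin, and Cd72, a coreceptor, both in the B cell list, are shown because each holds the letters GAGGAAGT, a form of the site bound by PU.1, the Ets family factor of B cells and myeloid cells. Cd37 lies on the minus strand at chr7:45238790-45239089 and Cd72 on the minus strand at chr4:43454577-43454876 of GRCm38.p6, and the letters in capitals stand at -25 and -49 as the reverse complement.
Cd37: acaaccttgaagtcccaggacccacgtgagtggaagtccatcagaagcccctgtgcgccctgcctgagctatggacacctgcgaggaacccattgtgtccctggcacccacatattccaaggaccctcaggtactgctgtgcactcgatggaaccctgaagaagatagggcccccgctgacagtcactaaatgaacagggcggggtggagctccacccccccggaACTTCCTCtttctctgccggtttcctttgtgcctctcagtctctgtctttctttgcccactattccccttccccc
Cd72: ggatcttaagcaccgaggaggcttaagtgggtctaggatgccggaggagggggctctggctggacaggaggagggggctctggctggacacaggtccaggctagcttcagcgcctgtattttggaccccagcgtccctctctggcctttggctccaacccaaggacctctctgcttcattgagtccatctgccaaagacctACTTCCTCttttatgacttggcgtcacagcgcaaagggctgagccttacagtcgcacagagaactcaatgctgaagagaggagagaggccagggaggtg
In spleen Cd37 had 2150.1 and 3361 units, against 89.9 to 231 units (median 115), and Cd72 had 2923 and 2776 units, against 132 to 326 units (median 226). Of the 20 called B cell genes, 16 had a window, and 2 of their 19 windows held these letters. The same letters stood in 6.49% of the 801 windows of genes above every other array and in 5.32% of the 1653 windows of all higher genes. Their share was 2.87% in the 2059 windows of lower genes and 3.20% in all windows. The octamer ATGCAAAT stood in 2.00% of the windows of genes above every other array and in 1.74% of all windows, and CCACACCC, bound by Klf factors, in 3.25% and 3.56%. In the windows of genes tested the shares were 3.08% for the PU.1 letters, 1.31% for the octamer and 3.84% for the Klf letters. Both strands were searched.

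T cell genes were also higher in spleen. Of 21 tested 18 rose, 16 above every other array, with a median of 1.88. With the higher floor, at percentile 75, 4 were called. In 6 of the 21 T cell genes no other tissue was above the floor on average, so that these passed the filter through the spleen arrays. Cd3d and Cd3g, chains of the receptor complex, had 2736 and 3275 units and 1630.5 and 1654 units in spleen, against 129.9 to 345 units (median 225) for Cd3d and 44.1 to 347 units (median 237) for Cd3g. Cd2, an adhesion receptor, had 1589 and 1882 units, against 48.2 to 159.9 units (median 56.4), and Cd28, the costimulatory receptor, had 903 and 923 units, against 36.7 to 111 units (median 67.0). Il7r, the interleukin 7 receptor of resting T cells, had 2868 and 2793 units, against 62.5 to 619 units (median 282). Cd8a and Cd8b1 had 695 and 578 units and 375 and 341 units, all above the highest other values of 225 and 51.2 units. Cd4 just missed the limit, with 489 and 508 units and a log2 difference of 0.97, which became 1.01 without jejunum and 1.02 without liver. Bcl11b, a factor of T cell commitment, was higher in spleen (1414 and 2545 units) but reached 1543 and 1297 units in ileum, so the groups overlapped and the call was lost without liver, at a log2 difference of 0.26. Zap70, a kinase of the receptor, was not called, with 671 and 658 units in spleen and 1098 and 1475 units in liver, but the median over its probe sets was higher in spleen, by 1.47 on the log2 scale.

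Of 12 tested genes of natural killer and cytotoxic cells 8 rose, all above every other array. The median was 1.29, and 1 was called with the higher floor. In 4 of the 12 no other tissue was above the floor on average, so that these passed the filter through the spleen arrays. Without the spleen array of 28 months 5 stood above every other array. Ccl5, a chemokine of cytotoxic cells, had 9730.4 units at 28 months and 4229 units at 4 months, against 235 to 1336 units (median 609), and Nkg7, a granule protein, had 1416 and 852 units, against 70.8 to 201 units (median 149.9). Klrd1, which encodes CD94, had 950.1 and 1204 units in spleen, against 54.4 to 254 units (median 113). The granzymes did not pass. Gzma had 327 units at 28 months and 2539 units at 4 months in spleen and 3173 and 2828 units in jejunum, and Gzmb had 354 and 176 units in spleen and 679.7 and 885 units in jejunum.

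Antigen presentation by MHC class II was higher in spleen in all 10 genes tested, 7 of them above every other array, with a median of 2.54. H2-Aa, an antigen presenting chain, had 24109 units at 28 months and 24056 units at 4 months in spleen, against 2224 to 10788 units (median 7793), with the ileum array of 28 months as the nearest. Ciita, the coactivator that switches these genes on, had 942 and 1056 units, against 69.1 to 202 units (median 144). H2-Oa and H2-Ob, which form the modulator of peptide loading in B cells, were both called, and H2-Ob had 6077 and 6997 units in spleen against 35.4 to 502 units (median 112). Of 12 tested dendritic cell genes 9 rose, and 2 stood above every other array, Flt3, the growth factor receptor of these cells, with 524 and 589 units against 157 to 199 units (median 168), and Irf8, a factor of type 1 and plasmacytoid dendritic cells and of B cells, with 5343 and 5662 units against 223 to 1690.4 units (median 1393). With the higher floor, 2 were called. The number above every other array was 6 without the spleen array of 28 months and 4 without liver.

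Receptors that place leukocytes in the tissue were raised in 10 of 13 genes tested, with a median of 1.93, and 4 were called with the higher floor. Cxcr5, which draws cells into follicles, had 2412 units at 28 months and 3017 units at 4 months in spleen, against 36.2 to 227 units (median 45.9), and Ccr7, which draws them to T zones, had 762 and 1231 units, against 55.7 to 101 units (median 62.4). Ccr6, Cxcr4 and Gpr183, a receptor for oxysterols, had 1849.6 and 2535 units, 1832 and 1991 units and 1308 and 1566 units, all above the highest other values of 358, 383 and 211 units. Among the signals that lay out the white pulp, 7 of 14 genes rose and 1 fell, with a median of 0.98, and 4 rose with the spread between tissues as error or without probe sets that can read several transcripts. Ltb, lymphotoxin beta, had 7432 and 11479 units in spleen, against 159.7 to 1107 units (median 376). Its receptor Ltbr fell, with 349 and 302 units in spleen against 1154 to 2470.2 units (median 1510.1), below all 8 other arrays. Cxcl13, the ligand of Cxcr5, had 8928 units at 28 months and 10551 units at 4 months in spleen, while distal colon had 7984 and 2685 units. Mfge8, a bridge for the uptake of dying cells made by follicular dendritic cells and macrophages, had 8380.0 and 9206 units, against 569 to 3949.7 units (median 1831).

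Of 29 tested transcription factors of blood lineages, 23 rose and none fell, 21 of them above every other array. The median was 2.49, and 14 were called with the higher floor. In 9 of the 29 no other tissue was above the floor on average, so that these passed the filter through the spleen arrays. Many of the 29 also belong to other lists given here, so their count is not separate from those. Ikzf1, the founding Ikaros factor, had 5998 units at 28 months and 6425 units at 4 months in spleen, against 182 to 532 units (median 321), and Ets1 had 10174 and 12249 units, against 715 to 1764 units (median 1270.5). Lmo2, a bridging protein of Tal1 and GATA complexes, had 8345 and 7560.1 units, against 417 to 820.3 units (median 559), and Lyl1, a relative of Tal1, had 1272 and 1283 units, against 109 to 236 units (median 159). Runx1 and Runx3 had 719.5 and 859 units and 780.3 and 1085 units, against highest other values of 199.8 and 136 units. Without 1 spleen array the brightest Runx1 probe set was another one, and its difference was 0.34 without that of 28 months and 0.82 without that of 4 months. Myb, needed in blood precursors and in intestinal crypts, was an exception, with 1522 and 1779 units in spleen, 2635 and 1824 units in jejunum and 4163 and 3942 units in distal colon. Id3 was not called either, at a log2 difference of -0.62. Of 12 tested genes used to mark stem and progenitor cells 4 rose and 1 fell, against 11.4% and 14.9% of all genes tested. Their median was 0.19. In this list 3 fell when liver, jejunum or ileum was left out, and 2 rose with the higher floor. Distal colon was the highest other tissue for 11 of the 12. Kit, the stem cell factor receptor, had 323 and 510.4 units in spleen and 901 and 1081 units in distal colon, and Mecom, a zinc finger factor, fell, with 246 and 287 units against 3858 and 3470.2 units in distal colon.

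Megakaryocyte and platelet genes rose in 13 of 15 tested, 9 above every other array, with a median of 2.18, and 4 were called with the higher floor. Pf4, platelet factor 4, had 10643 units at 28 months and 7741 units at 4 months in spleen, against 229 to 1089 units (median 387). Tubb1, the tubulin of platelets, had 2382 and 1474 units, against 50.2 to 114 units (median 63.2), and Itga2b, which encodes CD41, had 1247 and 880.4 units, against 150.2 to 252 units (median 159). Gp5 and Gp9, parts of the receptor for von Willebrand factor, had 642 and 501 units and 860.3 and 592 units, against highest other values of 68.7 and 149 units. Another subunit gene of that receptor, Gp1bb, had 1725 and 1175 units in spleen and 2568 and 1417 units in ileum. Clec1b, a platelet receptor also known from liver sinuses, had 1465 and 1072 units in spleen and 905 and 736 units in liver.

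Granulocyte genes were raised in 8 of 14 tested, 7 above every other array, with a median of 1.32 for the lower spleen value, and 5 were called with the higher floor. S100a8 and S100a9, which form calprotectin, had 16546 units at 28 months and 7194 units at 4 months for S100a8 and 12126 units at 28 months and 4634 units at 4 months for S100a9. In the other arrays S100a8 had 53.3 to 864 units (median 91.0) and S100a9 had 53.4 to 532 units (median 73.2), and liver at 28 months gave the highest value of both. Ngp and Camp, proteins of secondary granules, had 4985 and 1622 units and 4733 and 1749 units, against 81.5 to 238 units (median 95.9) for Ngp and 69.0 to 142 units (median 80.5) for Camp. Ltf, lactoferrin, had 1786 and 631 units, against 55.9 to 199 units (median 85.9), and Chil3, a chitinase-like protein, had 2776 and 1061 units, against 23.9 to 185 units (median 29.0). Lcn2, a siderophore binding protein, was not called, with 1285 and 372 units in spleen and 9366 units in liver at 28 months, and reached a log2 difference of 1.54 without liver.

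Macrophage genes of the red pulp were higher in every case tested. All 13 tested genes of red pulp macrophages rose, 6 above every other array, with a median of 1.96, and liver was the highest other tissue for 9. Without liver 10 stood above every other array. With the spread between tissues as error, or without probe sets that can read several transcripts, 10 of the 13 were called higher. The median over probe sets gave 11. Spic, the Ets factor required for these cells, had 1847 units at 28 months and 2047 units at 4 months in spleen, against 40.5 to 122 units (median 47.3), 15.1-fold above the highest other array. Vcam1, an adhesion molecule these cells carry, had 14800.0 and 14038 units, against 480.4 to 1175 units (median 732) (fitted log2 difference 4.30 ± 0.18, SE). Hmox1, which opens the haem ring, had 2897 and 3272 units, against 764 and 356 units in liver and 129.7 and 123 units in distal colon. Treml4, a receptor for dying cells, had 1956 and 2196 units, against 46.3 to 439 units (median 108). Slc40a1, the iron exporter ferroportin, had the smallest difference of the 13, with 11751 and 12422 units in spleen, 8695 and 9369.8 units in liver, 10048 and 9416 units in jejunum and 1232 and 1894 units in ileum, and without ileum its log2 difference was 0.46. Csf1r, the receptor of the macrophage growth factor, had 20009 and 20847 units, against 3023 to 6408 units (median 3902). Of 6 genes tested for marginal zone macrophages 2 rose, both above every other array. Over all genes tested, 11.4% rose and 5.54% stood above every other array. Marco, a scavenger receptor, had 2646 units at 28 months and 4302 units at 4 months in spleen, against 59.7 to 765 units (median 63.5), and Timd4, a receptor for phosphatidylserine, had 1934 and 2409 units, against 52.6 to 360.4 units (median 89.8). Siglec1 was not called, with 165 and 135 units against 125 to 192 units (median 138).

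Vessel genes were raised in 6 of 12 tested, none above every other array, and 3 were called with the spread between tissues as error and 2 with the higher floor. Without liver 3 stood above every other array. Stab2, a scavenger receptor of sinus endothelium, had 1743 units at 28 months and 2119.9 units at 4 months in spleen, 1517 and 1352 units in liver and 85.0 and 81.9 units in distal colon. Mrc1, the mannose receptor, had 3638 and 3938 units in spleen and 2227 and 2048 units in liver. For both, liver was the highest other tissue. Lyve1, a hyaluronan receptor of lymphatic and liver sinus endothelium, fell, with 101 and 98.9 units in spleen, both below the floor, against 501 to 1533 units (median 840.4). Madcam1, an addressin of the marginal sinus, had 357 and 359 units, against 72.5 to 243 units (median 177), and was not called without liver (log2 difference 0.95).

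Factors known from the forming spleen were raised in part. Of 5 tested, 2 rose and both stood above every other array, against shares of 11.4% and 5.54% over all genes tested. Tlx1, a homeobox factor without which mice lack a spleen, had 287 units at 28 months and 285 units at 4 months, against 71.8 to 94.7 units (median 86.9). Wt1, a zinc finger factor of the splenic primordium and of mesothelium, had 233 and 252 units, against 33.6 to 67.1 units (median 48.1). All 8 other arrays were below the floor for both, and neither could be tested when 1 spleen array was left out, because too few arrays then passed the filter. Nkx2-5 and Nkx2-3 were not called, the second with 478 and 473 units in spleen and 601 and 552 units in ileum. Tcf21 had 1585 and 1798 units in spleen and 1894 and 2663 units in distal colon and was not called.

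**Figure D3:**
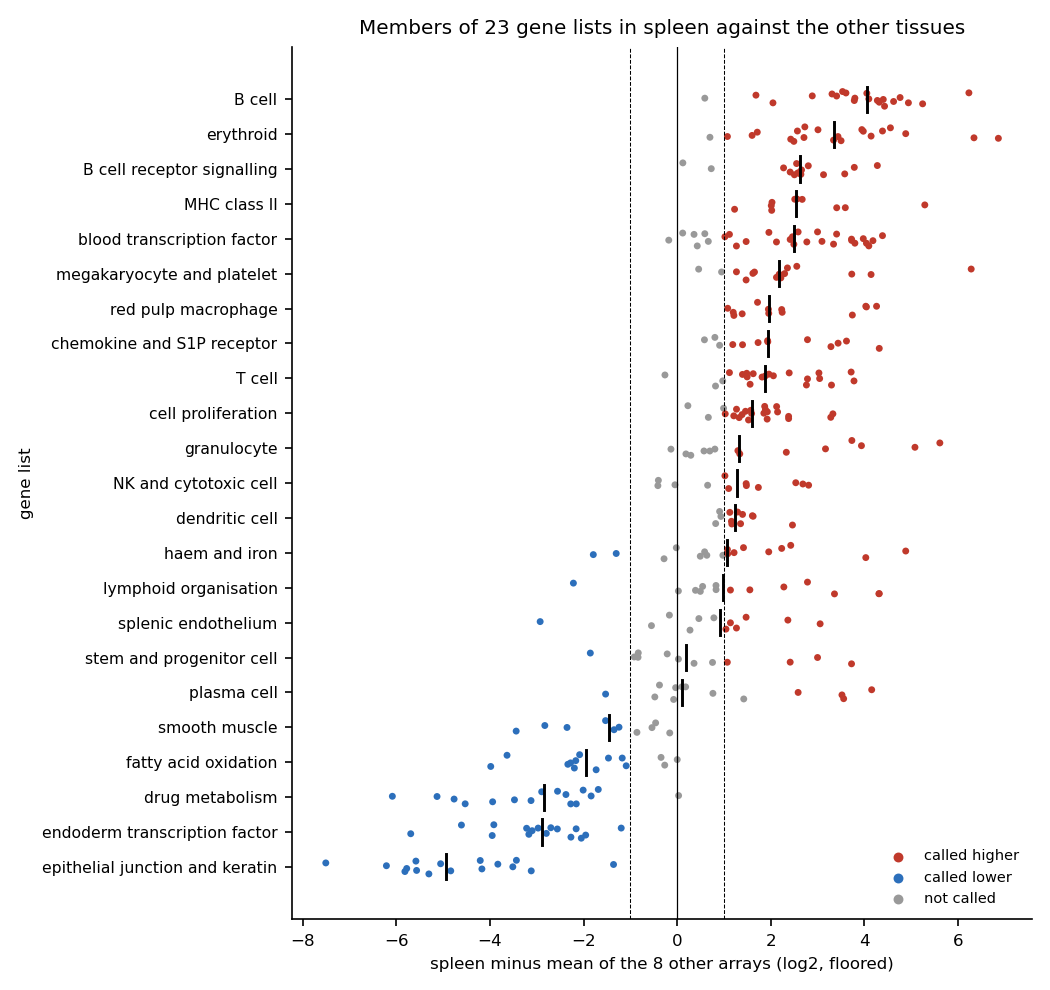
Difference of spleen from the mean of the 8 other arrays (horizontal axis, log2, floored) for each tested member of 23 gene lists (rows); points show the lower spleen value for members with a positive difference and the higher one for the rest, colours show the call, and black bars show the median of the lower spleen value. All B cell and red cell members but 1 each lie beyond the dashed 2-fold line at the right, and all members of the endoderm factor and epithelial lists beyond that at the left.

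The genes lower in spleen were led by those of epithelia. Krt8, a keratin of simple epithelia, had 114 units at 28 months and 109.9 units at 4 months in spleen, against 4904 to 33359 units (median 29696) in the other arrays, at least 182-fold lower (adjusted p = 6.1e-08). Pigr, which carries IgA and IgM through epithelial cells, had 73.0 and 64.4 units in spleen, against 14981 to 26057 units (median 20673), at least 180.3-fold lower. Ugt2b34, a glucuronosyltransferase, and Sult1d1, a sulfotransferase, were below the floor in spleen on both arrays. In the other arrays Ugt2b34 had 7909.6 to 12139 units (median 9456) and Sult1d1 had 5979 to 10526 units (median 7297). Dsp, desmoplakin of desmosomes, had 46.1 and 65.5 units in spleen, against 3763 to 14138 units (median 9494), and Cldn3, a tight junction claudin, had 78.0 and 70.4 units, against 2229 to 10325 units (median 7938). Tmem30b, a subunit of lipid flippases, had 46.9 and 41.0 units, against 4742 to 11510.0 units (median 8189). Adh1, alcohol dehydrogenase, had 159.9 and 265 units, against 4758 to 26117 units (median 20877). Fabp2, Apoa1 and Apob of fat absorption and lipoproteins, and Tff3, a trefoil peptide of mucus, completed the first 12, and for Apoa1 both distal colon arrays (61.3 and 42.8 units) were below the floor as in spleen (55.6 and 52.3 units).

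All 16 tested genes of epithelial junctions and keratins fell, with a median of -4.94 for the higher spleen value, and 9 were called with the spread between tissues as error. Cdh1, E-cadherin, had 63.4 units at 28 months and 103 units at 4 months in spleen, against 1087 to 10959 units (median 8253). Epcam, an adhesion molecule of epithelia, was above the floor in spleen, with 428 and 367 units, against 17942 and 20496 units in jejunum and 141 and 119 units in liver. The 16 tested transcription factors of endoderm fell likewise, with a median of -2.88, and 7 were called with the spread between tissues as error and 9 with the higher floor. Hnf4a, a nuclear receptor of liver and gut, had 184 and 175 units in spleen, against 7981 to 11537 units (median 9322). Foxa3 and Nr1h4, the bile acid receptor FXR, were below the floor in spleen at 36.8 and 42.0 units and 45.8 and 45.0 units, and above it on every other array, from 581 to 2469 units (median 811) for Foxa3 and 897 to 4010.3 units (median 1729) for Nr1h4. Cdx1, Cdx2 and Klf5 of the intestine were below the floor in liver too.

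Metabolic genes of liver and gut were lower. Of 14 tested genes of fatty acid oxidation 11 fell, with a median of -1.91. Hadh, a dehydrogenase of the mitochondrial path, had 4693 units at 28 months and 4899 units at 4 months in spleen, against 16402 to 28889 units (median 22647), and Ppara, the nuclear receptor that governs the path, had 50.5 and 43.0 units, against 312 to 3811 units (median 1640.0). Acadl (-0.34) and Hadhb (-0.27) on the log2 scale by the higher spleen value were not called. Of 16 tested genes of drug metabolism 15 fell, with a median of -2.72, and 4 were called with the spread between tissues as error; Ephx1, an epoxide hydrolase, was the exception, with 1255 and 1552 units in spleen and 1001 and 776 units in distal colon. Liver was the highest of the 4 other tissues for 13 of the 16. Smooth muscle genes fell in 6 of 10, with a median of -1.29; the count was 3 without distal colon, 9 without liver and 0 with the spread between tissues as error. Myh11, smooth muscle myosin, had 258 and 359 units in spleen, against 7805 and 13757 units in distal colon and 77.3 and 74.8 units in liver, and Acta2, smooth muscle actin, was not called with 4238 and 4805 units, but fell without liver, by 1.57 on the log2 scale.

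Set against each tissue alone, the lists differed in which tissue came closest to the spleen. Distal colon was the highest of the other tissues for 676 of the 1545 genes higher in spleen, 43.8%, against 32.3% of all genes tested, and liver for 345, 22.3% against 32.9%. Jejunum was highest for 309 and ileum for 129, and in 86 no other tissue was above the floor on average. The B cell list exceeded distal colon by a median of 3.55 on the log2 scale, liver by 4.69 and jejunum by 4.42. For the T cell list the medians were 2.52 over liver and 1.94 over ileum. Red pulp macrophage genes exceeded liver by a median of 1.68 and the 3 parts of the intestine by 2.19 to 2.61. Granulocyte genes exceeded liver by 1.83 and the intestine by 2.34 to 2.48. Vessel genes differed from liver by 0.14 at the median. For plasma cell genes the median difference was 2.07 from liver and 0.14 from jejunum. These differences between tissues were not tested.

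**Figure D4:**
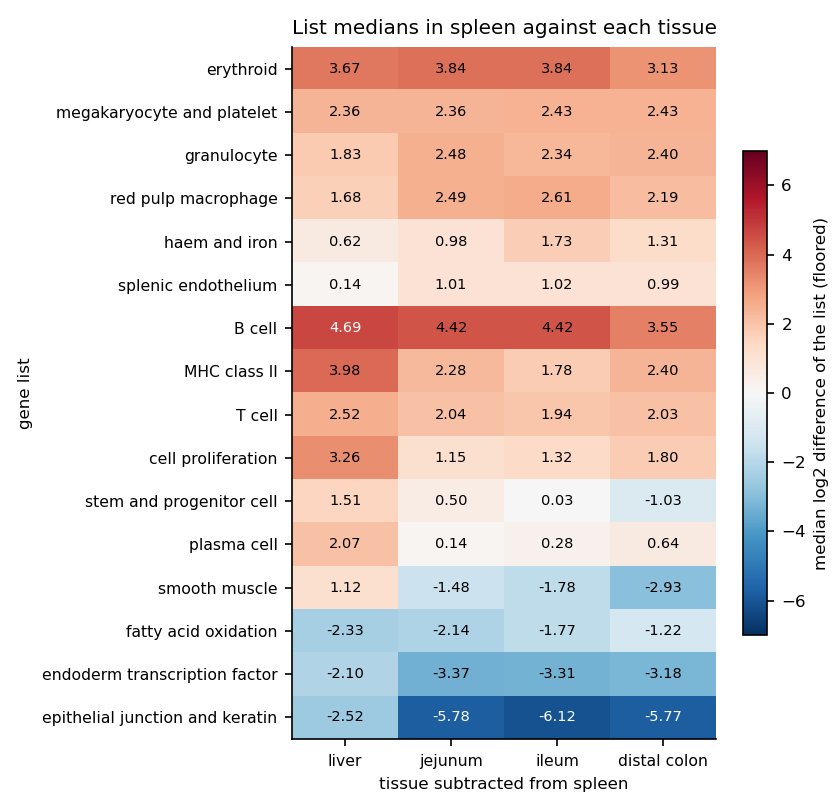
Median log2 difference of spleen minus liver, jejunum, ileum or distal colon (columns, means of the 2 ages, floored) for the tested members of 16 gene lists (rows); red is higher in spleen and blue lower. The B cell list is lowest against distal colon at 3.55, and the smooth muscle list is at 1.12 against liver and -2.93 against distal colon.

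The 2 spleen arrays differed by 2-fold or more in 108 of the genes tested, 0.794%, and in 17 of the 754 genes above every other array, 2.25%. Of these 17, 13 were higher at 28 months, as were 41.2% of the 754 by any amount. They included granulocyte genes. Mpo, myeloperoxidase of granulocyte precursors, had 1221 units at 28 months and 282 units at 4 months, against 46.8 to 119 units (median 70.8) in the other tissues, and was 2.38-fold above them by its lower value. All 14 tested granulocyte genes were higher at 28 months, against 45.0% of all genes tested. Their median log2 difference between the ages was 1.39, against 0 over all genes. All 21 red cell genes were higher at 28 months as well, with a median of 0.54. Apol11b, of the apolipoprotein L family, had 4419 units at 28 months and 1214 units at 4 months, and Lef1, a factor of naive T cells, went the other way with 476 units at 28 months and 1471 units at 4 months. Edaradd, an adaptor of the ectodysplasin receptor, had 277 and 834 units at 28 and 4 months, and was 0.46 above the rest on the log2 scale without the array of 4 months, when another of its probe sets was the brightest. With 1 array per age these differences have no replicate check.

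Genes of the pancreatic acinus marked the spleen array of 4 months. The summed signal of 19 tested acinar genes was 3090 units in spleen at 28 months and 69611 units at 4 months, and in the other arrays it lay between 4639 and 120187 units, highest in jejunum. Distal colon had 74350.4 and 59446 units, of which Sycn, syncollin of secretory granules, gave 32982 and 27058 units and Klk1, a kallikrein, 23932 and 17049 units. Cela2a, an elastase, had 57.4 units at 28 months and 8306 units at 4 months in spleen, with 9811 and 10404 units in jejunum and 60.7 and 42.9 units in distal colon. Prss2, a trypsinogen, had 168 units at 28 months and 7389.7 units at 4 months in spleen and 9373 and 9454 units in jejunum. Hormone genes of the islets were not raised with them: Ins2 had 167 and 170.2 units at 28 and 4 months, and Iapp had 62.2 and 55.4 units. The rule takes the lower spleen value for a rise and the higher one for a fall, and by it none of the 19 was called. The median log2 difference of the 19 from the other arrays was -1.45 by the lower spleen value and 2.93 by the higher. Over all genes, 653 were 2-fold above the rest by the higher spleen array and not by the lower, 374 of them brighter at 4 months. Taking the mean of both arrays gave 1849 higher genes in place of 1545. How the acinar transcripts came to be on that array was not tested.

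**Figure D5:**
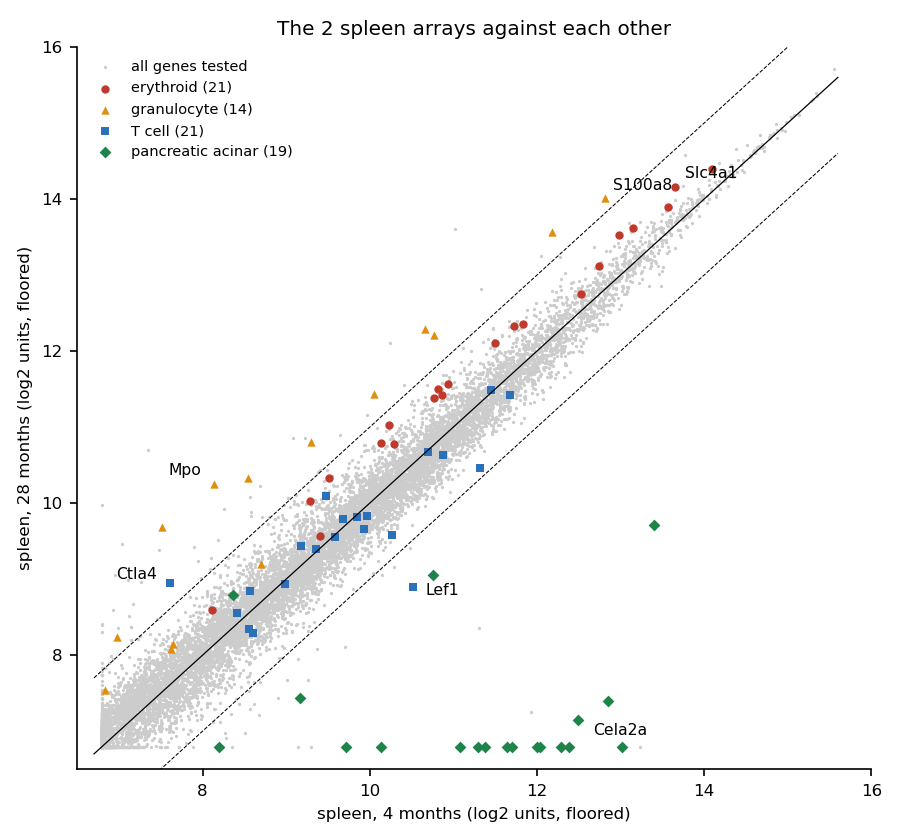
Signal of the spleen array of 28 months (vertical axis) against that of 4 months (horizontal axis), both in log2 units with the floor applied, for all genes tested and 4 gene lists; the solid line marks equality and the dashed lines a 2-fold difference. Granulocyte genes (orange) and red cell genes (red) lie above the line of equality, and 18 of 19 acinar genes (green) lie more than 2-fold below it, 13 of the 19 at the floor at 28 months.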

How the data were processed

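Total RNA of 5 tissues from male ICR mice of 28 and 4 months was pooled by the authors in equal amounts within a group and labelled with the GeneChip 3′IVT Express kit, per the labels' protocols. The deposited values are log2 signals for 45101 probe sets, between 2.71 and 14.8. The authors' normalization is not stated in the labels; the submitters' processing notes name MAS5 and affy without a role. Each array was scaled to a 2% trimmed mean of 500 units, by factors of 2.42 to 2.57. Genes were named from GEO's platform annotation: 34958 probe sets had 1 gene, 932 several and 9211 none, and the brightest single-gene probe set stood for each of 18194 genes. Signals under 111 units, the median of all signals, were raised to that floor for differences, and genes above it on at least 2 arrays were tested. limma 3.58.1 in R 4.3.3 fitted 5 tissue means and age, the block shared by tissues of the same mice, on all 10 arrays, with 4 residual degrees of freedom and Benjamini-Hochberg adjustment over 13608 genes, and 9506 had an adjusted p under 0.05. Precision is limited by having 10 arrays.

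The gene lists and the rule were chosen with earlier results of these data known. Genes were named by 4 rules: the 12 largest differences in each direction, the 12 farthest above every other array, the largest and otherwise telling members of each list, and genes that differed between the spleen ages. On simulated data with 200 genes changed each way by 1.5 on the log2 scale, 94.5% of raised and 96.5% of lowered genes were recovered among 12952 tested. The simulation gave each gene the same mean in all other tissues and changed only genes well above the floor. It does not show recovery for genes near the floor or for genes whose other tissues differ. The alternatives changed the floor, scaling, choice of probe set, error term, spleen value, fold limit and the arrays included. Motifs were searched with Python 3.11.15 in RefSeq promoter windows of GRCm38.p6.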

Additional observations from a re-analysis of the deposited data

Results flagged for a closer look

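In 14 genes the 2 spleen arrays lay on opposite sides of the mean of the other arrays. The 28-month signal was at least 2-fold below that mean and the 4-month signal at least 2-fold above it. A signal below the mean need not be below each other tissue. Among the 14 genes, those above the floor in spleen at both ages differed in this. At 28 months Prss2 had 168 units and Ctrl 142 units, above the medians of the other arrays, 140 and 114 units. Cela1 had 840 units, below its median of 7055 units. All 14 are known from the pancreatic acinus or are trypsin-like. In 11 of them the 28-month signal was below the floor, so that the log2 difference of 28 minus 4 months is a bound: it was -6.44 or lower for 2210010C04Rik, -6.23 or lower for Cela2a, -5.60 or lower for Clps, -5.50 or lower for Cela3b and -5.24 or lower for Cpb1. It was likewise at or below -5.21 for Ctrb1, -4.91 for Cpa1, -4.85 for Rnase1, -4.59 for Pnliprp1, -4.29 for Cel and -3.34 for Ctrc. With both signals above the floor it was -5.46 for Prss2, -5.35 for Ctrl and -3.68 for Cela1. With 1 array at each age this difference was not tested.

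Among 3613 measured probe sets without a single gene name, which none of the comparisons used, 229 had a lower spleen value at least 2-fold above all 8 other arrays, 6.34%. Of these, 41 were annotated to several genes and 188 to none.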

How the results depend on the processing

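At least 1 of the counts of 1545 higher, 2028 lower and 754 genes above every other array moved by more than 1.5 times under 4 of the 20 alternatives. With the floor at percentile 75 of all signals the counts were 902, 1221 and 472. A limit of 1.5-fold gave 2817, 3110 and 1360 genes, and one of 4-fold 514, 819 and 276. With the spread between tissues as error 847 genes were lower. Leaving out 1 array or tissue gave 1492 to 1790 higher, 2002 to 2224 lower and 777 to 938 above every other array. Of the 147 called genes among the 193 named, 2 changed sign: Slc11a2 was at 0.14 without jejunum and Alb at 0.29 without liver. Of the 46 not called, 32 changed sign under at least 1 alternative, and those that were then called were mostly acinar. Without the spleen array of 28 months 2210010C04Rik was at 4.81, Cel at 2.93, Cela2a at 4.59, Cela3b at 3.74, Cpa1 at 3.40, Cpb1 at 3.81, Ctrb1 at 3.36, Ctrc at 2.25, Ctrl at 4.20, Gzma at 2.56, Pnliprp1 at 3.29, Prss2 at 4.26 and Rnase1 at 3.40. Without that of 4 months Cela1 was at -2.42, Clps at -3.33, Sycn at -3.95 and Hp at 1.22. Hp was at 1.77 without liver and Zap70 at 1.47 with the median over probe sets. Of the 147, 28 lost the call with the spread between tissues as error, among them Apoa1, Blnk, Car1, Cxcl13, Ermap, Fcgr2b, Hamp, Klf5, Mecom, Mki67, Myh11, Slc40a1, Stab2 and Tfrc. With the higher floor 22 lost it, among them Ccr7, Cd28, Cd8a, Ciita, Epb42, Flt3, Gata1, Itga2b, Ltf, Lyve1 and Runx3. Genes in spleen alone could not be tested without 1 spleen array, under the filter of 2 arrays. No other tissue was above the floor on average for 3 tested members of the white pulp signal list. The same held for 2 members each of the platelet and chemokine receptor lists. Signals near background limit several lists: with the higher floor the counts of higher genes in the T cell, natural killer, dendritic cell, platelet, chemokine receptor, vessel, stem cell, germinal centre and spleen patterning lists were at least 2-fold lower. The tissues of 1 age came from the same mice, and the age term is the replicate block of this pairing; without it 1545 genes were higher, 2025 lower and 754 above every other array.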
